A study of Cornus officinalis with 7 samples.

Results

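The inflorescence of *C. officinalis* was compared with its vegetative tissues, young leaf, mature leaf and young stem, in 4 of the 7 RNA-seq libraries of the series. *C. officinalis* is a small medicinal tree whose yellow flowers open in clusters before the leaves. Each tissue is represented by 1 strand-specific, oligo(dT)-selected library, and all tissues carry the same plant material identifier and an age of 12 years and were grown without treatment in a medicinal garden. Expression is given as FPKM, the number of fragments scaled to unigene length and to the mapped fragments of the library. A unigene is a sequence of the *de novo* assembly and may be a whole transcript, a fragment or an isoform. Of 304371 unigenes, 156255 (51.3%) reached an FPKM of 1 in at least 1 of the 4 libraries and were compared. A unigene was called higher in inflorescence when its value lay at least 4 times above the highest of the 3 vegetative libraries, and lower when it lay at least 4 times below the lowest of them, with 1 added to every FPKM. Mature stem was left out. Each tissue has a single library, so the differences could not be set against a replicate spread and carry no p-values. The labels do not say how many flower clusters, leaves or shoots went into a library.

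An inflorescence carries the reproductive organs of the plant on short stalks, whereas leaves fix carbon and young stems join growing tissue with vessels and bark. In this species the best known metabolites are iridoids, small terpenoids such as loganin and morroniside that are built from geranyl diphosphate, triterpenoids such as ursolic and oleanolic acid, which are built from squalene, and gallotannins, whose galloyl groups leave the shikimate pathway. Cytochrome P450s (CYPs) are haem enzymes that oxidize the carbon skeletons of many plant metabolites. The enzyme names used here, given by sequence similarity in the study's lists, cover unigenes of these classes. No floral, photosynthetic or wood marker is among them, so the tissue labels were not checked against markers. In bulk tissue, a lower level cannot be told apart from a smaller share of the cells that express the unigene.

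The summed FPKM lay between 876794 in young stem and 948009 in young leaf, with 943613 in inflorescence. FPKM keeps no read counts, but unigenes above 0 in exactly 2 libraries show what 1 fragment is worth. By the most frequent ratio, which 13.3% to 27.4% of such unigenes showed, 1 fragment was worth 1.49 times as much FPKM in inflorescence as in young leaf or mature leaf and 1.72 times as much as in young stem. The inflorescence library was thus the shallowest of the 4, and low values in it are the least precise. Across 63016 unigenes above 0 in all 4 libraries, inflorescence lay a median of 0.28 on the log2 scale above the median vegetative library. Scale factors from median ratios among the 4 libraries were 1.15 for inflorescence, 1.17 for young stem, 0.947 for young leaf and 0.847 for mature leaf. Young stem was thus shifted from the leaves as much as inflorescence was. The part of depth in these shifts was not tested.

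More unigenes were called higher in inflorescence than lower. Of the 156255 unigenes, 7322 were called higher, which is 4.69%, and 996 were called lower, which is 0.637%. A higher call needs an FPKM of at least 3 in inflorescence alone, whereas a lower call needs it in all 3 vegetative libraries. The rule is thus not symmetric, and its part in the imbalance was not tested. Without a threshold, inflorescence lay above all 3 vegetative libraries for 55188 unigenes (35.3%), below all 3 for 23077 (14.8%) and within their range for 77990. These shares are not symmetric either. A unigene at 0 in inflorescence and in any vegetative library cannot lie below all 3, while one above 0 only in inflorescence always lies above. At 2-fold the counts were 20980 higher and 5676 lower, at 8-fold 1921 and 233, at 16-fold 520 and 42, and at 64-fold 81 and 5. The direction of the imbalance was the same at each of these steps. Its size depends on the value added to FPKM: with 0.1 in place of 1 the counts were 16543 and 10361, so that 61.5% of the calls were higher in place of 88.0%. After median-of-ratios scaling, which sets the median shift aside, 6053 were higher and 1077 lower.

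The vegetative library that limited the calls most was young stem. Without it, 10074 unigenes were called higher and 2667 lower. Without mature leaf the lower calls numbered 1823, and without young leaf 1292. Of the 1314 higher unigenes that were above 0 in any vegetative library, the next highest value was in young stem for 598 (45.5%), in mature leaf for 358 and in young leaf for 350. Of the 996 lower unigenes, the lowest vegetative value was in young stem for 400, in mature leaf for 383 and in young leaf for 213. Across all tested unigenes, Pearson's r of log2(FPKM + 1) with inflorescence was 0.61 for young leaf, 0.60 for young stem and 0.57 for mature leaf. These are values across unigenes of single libraries, given as a description. With mature stem added as another vegetative library, 4 unigenes were called lower and 7250 higher.

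Most unigenes called higher were of modest level. Their median FPKM in inflorescence was 5.67, with quartiles of 3.82 and 9.18, and 4239 of them (57.9%) reached an FPKM of 5. An FPKM of 10 was reached by 1674 (22.9%), of 100 by 165 and of 1000 by 10. In all 3 vegetative libraries 6008 (82.1%) were listed at 0, and 4386 (59.9%) were listed at 0 in each of the other 6 libraries of the series. The few very abundant ones carried much of the signal. The 10 most abundant held 26.1%, and the 100 most abundant 48.3%, of the inflorescence FPKM summed over all unigenes called higher.

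The unigenes furthest from the vegetative libraries had no enzyme name. Unigene267164 had an FPKM of 6776 in inflorescence and Unigene267163 one of 4327, and both were listed at 0 in young leaf, mature leaf, young stem, pericarp and seed. Their consecutive numbers leave it unsettled whether they are separate genes, since read assignment between similar unigenes was made by RSEM. In the other direction, Unigene012353 was listed at 0 in inflorescence and had 804 in young leaf, 491 in mature leaf, 269.6 in young stem, 2837 in pericarp and 508 in seed. Unigene223856 was also listed at 0 in inflorescence, with 278 in young leaf, 159 in mature leaf and 383 in young stem, but was listed at 0 in pericarp and seed as well. The first of these was thus present in every library of leaf, young stem and fruit, and the second, of these 6, only in the vegetative ones.

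Unigenes called lower were well expressed in all 3 vegetative tissues by the rule itself, which needs an FPKM of at least 3 in each. Their median FPKM was 10.5 in young leaf, 9.20 in mature leaf and 9.72 in young stem, and 632 of the 996 (63.5%) were listed at 0 in inflorescence. The unigenes called higher held 15.2% of the summed FPKM of inflorescence and between 0.356% and 0.521% of that of the vegetative libraries. The unigenes called lower held 6.04% of the sum in young leaf, 4.97% in mature leaf and 4.02% in young stem, against 0.225% in inflorescence.

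**Figure D1:**
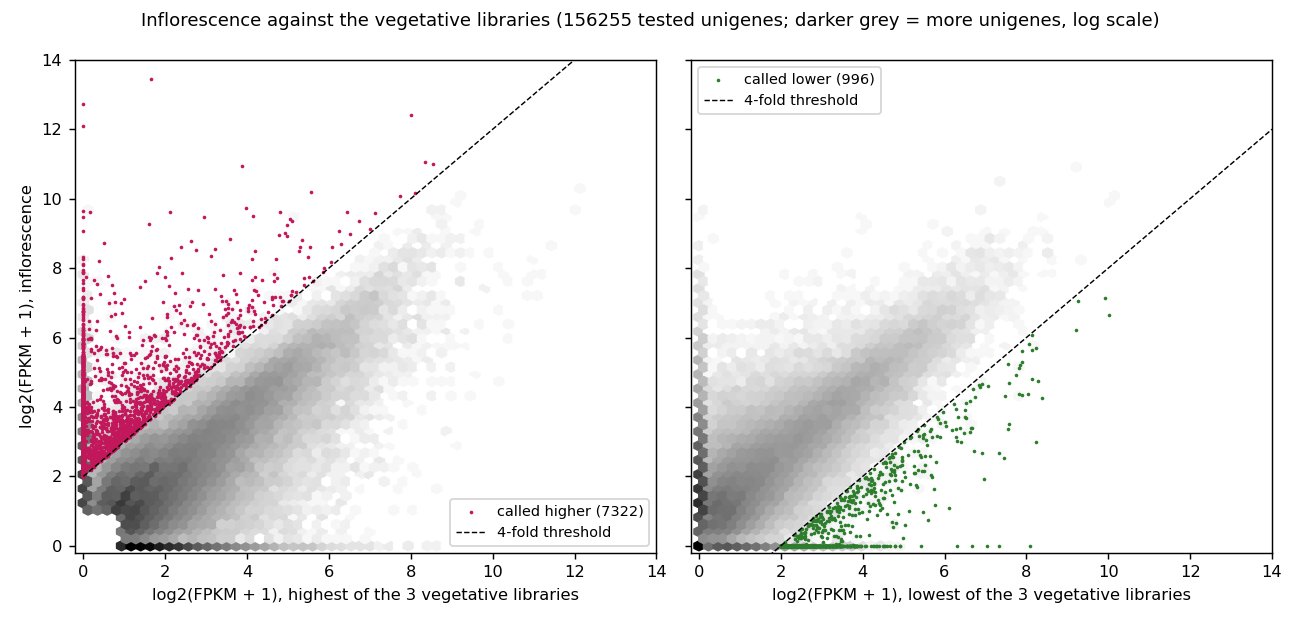
Inflorescence plotted against the highest (left) and the lowest (right) vegetative library, both as log2(FPKM + 1), for 156255 tested unigenes, with grey cells shaded by the number of unigenes on a log scale. The 7322 unigenes called higher lie above the dashed 4-fold line, many of them at 0 on the horizontal axis, and the 996 called lower lie below it, many of them at 0 in inflorescence.

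Pericarp and seed, the fruit tissues that form after flowering, were not used to make the calls. Among the unigenes called higher, 5402 (73.8%) had at least 4 times less in both fruit libraries than in inflorescence, on FPKM + 1, compared with 5.96% of all tested unigenes. The other 1920 (26.2%) were less than 4 times below inflorescence in pericarp, in seed or in both. A unigene can lie 4 times below inflorescence only where inflorescence reaches an FPKM of 3, as every higher call does by rule. The share of 5.96% includes unigenes below that level, so it is not a matched background. Pericarp exceeded inflorescence for 144 of the higher unigenes and seed for 180. Both fruit libraries held less of the sum on these unigenes than inflorescence, 3.77% in pericarp and 2.18% in seed.

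The unigenes called lower were mostly present in the fruit. Their median FPKM was 5.66 in pericarp and 4.63 in seed. Pericarp lay at least 4 times above inflorescence for 583 (58.5%) and seed for 511 (51.3%), compared with 3.42% and 3.25% of all tested unigenes. For 391 (39.3%) both fruit libraries did so, compared with 0.981% of all tested unigenes. Pericarp exceeded even the highest vegetative library for 178 of them and seed for 189. The fruit is here compared with the same inflorescence values that made the calls, so these shares are a description and carry no independent support for the calls.

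**Figure D2:**
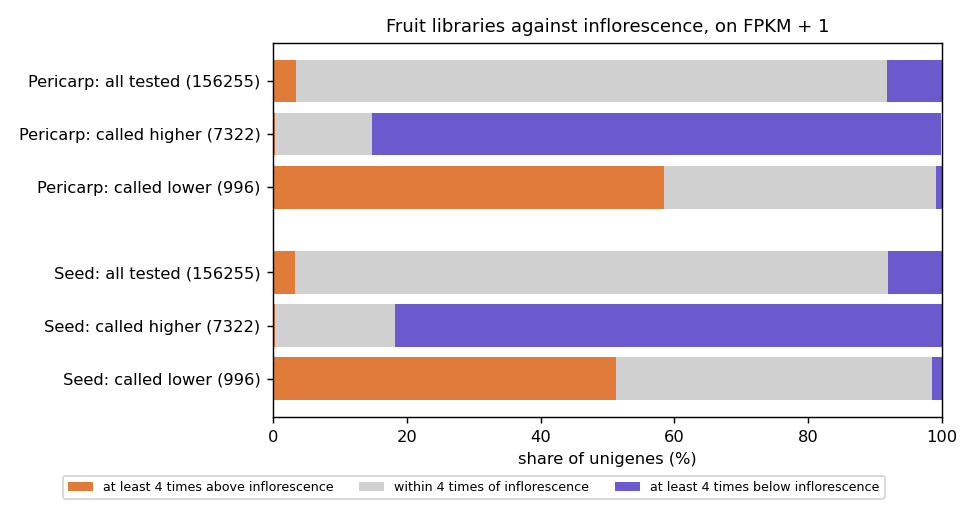
Share of unigenes (%) whose FPKM + 1 in pericarp (upper bars) or seed (lower bars) lay at least 4 times above, within 4 times of, or at least 4 times below that in inflorescence, for all 156255 tested unigenes and for those called higher and lower. Of the unigenes called lower, 58.5% had at least 4 times more in pericarp and 51.3% in seed, while 85.2% and 81.8% of those called higher had at least 4 times less.

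Few unigenes of the pathway lists passed the threshold in either direction. Of 182 triterpenoid unigenes 129 were tested, of 83 iridoid unigenes 61, and of 37 gallotannin unigenes 22. The other 53, 22 and 15 stayed below an FPKM of 1 in all 4 libraries. In the triterpenoid list 1 unigene was called higher (0.775%) and 1 lower, in the iridoid list 2 (3.28%) in each direction, and in the gallotannin list 0 higher and 2 lower (9.09%). These shares stand beside 4.69% higher and 0.637% lower over all tested unigenes. At 2-fold, 10 of the 129 triterpenoid unigenes were higher and 8 lower. The counts were 7 and 4 of 61 for iridoids and 0 and 3 of 22 for gallotannins. Over all 156255 tested unigenes they were 20980 and 5676. In each list the share higher was below that of all tested unigenes and the share lower above it, on few unigenes. The median log2 difference from the median vegetative library, with 1 added, was 0.00 in the triterpenoid and iridoid lists and over all tested unigenes. It was -0.46 in the gallotannin list, and -0.60 after median-of-ratios scaling.

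The first steps towards triterpenoids had higher FPKM in inflorescence than in the leaves. Farnesyl diphosphate synthase (FPPS), which makes the C15 precursor, had a summed FPKM of 100 in inflorescence over its 5 unigenes, compared with 130 in young stem, 70.4 in young leaf and 41.6 in mature leaf. Its leading unigene, Unigene214527, had 57.7 in inflorescence, between 27.9 in young leaf and 73.9 in young stem. This unigene is also listed as a geranyl diphosphate synthase, and so is Unigene080179, named after its values were seen, with 41.9 in inflorescence. Nearly all of the FPPS sum is therefore counted for both enzymes. The triterpenoid and iridoid lists share 3 unigenes in all. Squalene synthase (SQS), which joins 2 farnesyl units, had 141 in inflorescence against 111 to 129 in the vegetative libraries, a position that moved to within their range, and no longer above both leaves, under median-of-ratios scaling. SQS Unigene193292 had 70.5 in inflorescence and 70.6 in young stem.

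Squalene epoxidase (SQE), which adds the oxygen needed for ring closure, stood highest in inflorescence. Its 33 unigenes summed to 166 in inflorescence, 95.5 in young stem, 83.0 in young leaf and 61.6 in mature leaf. Inflorescence was thus 1.74 times the highest vegetative library, and it stayed above all 3 under both other scalings. A single unigene, Unigene250497, carried 65.6% of the inflorescence sum. It had 109 in inflorescence, 44.5 in young leaf, 37.7 in young stem and 34.1 in mature leaf, a 2.45-fold excess over the highest of them that does not reach the threshold.

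The cyclases, which fold squalene epoxide into different skeletons, differed among themselves. Cycloartenol synthase (CAS), at the entry to sterols, had 45.6 in inflorescence against 22.4 to 41.1, and its leading Unigene078800 had 44.1, close to 39.95 in young stem. Amyrin synthase (AS), which forms the ursane and oleanane skeletons, had 176 over 49 unigenes, within the vegetative range of 136 in young stem to 266 in young leaf. Its unigene with the highest value in any of the 4 libraries, Unigene081022, had 57.6 in young leaf, 30.4 in mature leaf, 21.5 in young stem and 17.6 in inflorescence. Lupeol synthase (LS) was lowest in inflorescence, with 15.5 over 19 unigenes against 206 in young stem, 30.7 in young leaf and 24.8 in mature leaf. Most of the young stem signal came from LS Unigene126127, with 130.3 there, 3.19 in inflorescence, 2.84 in young leaf, 3.02 in mature leaf and 195 in seed. For this unigene inflorescence was low in the company of both leaves.

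LS Unigene097749 was the only triterpenoid unigene called lower. It had 7.90 in young leaf, 9.10 in mature leaf, 4.14 in young stem, 9.79 in pericarp and 3.96 in seed and was listed at 0 in inflorescence. Among the rarer cyclases, cucurbitadienol synthase (CBS) summed to 3.66 in inflorescence against 4.45 to 8.32, and its Unigene275362 had 2.88. The unigenes listed as OSC, DS, TS and DH, names given here as listed, summed to an FPKM below 1 in inflorescence. Their highest unigenes had 0.29 (Unigene242439, OSC), 0.90 (Unigene229364, DS), 0 (Unigene244997, TS) and 0.41 (Unigene054480, DH) there, the DS unigene being untested.

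Amyrin oxidases (AO), which oxidize the amyrin skeleton towards ursolic and oleanolic acid, summed to 355 over 42 unigenes in inflorescence. This lay between 216 in young leaf and 528 in young stem. The single triterpenoid unigene called higher was AO Unigene228267. It had 60.1 in inflorescence and 2.07 in young leaf and was listed at 0 in mature leaf, young stem, pericarp and seed, a 29.0-fold excess over young leaf. AO Unigene173248 showed another pattern, with 239 in young stem, 284 in seed and 35.6 in pericarp against 0.87 in inflorescence, 1.69 in young leaf and 0.29 in mature leaf. The most abundant amyrin oxidase of the inflorescence, Unigene077149, named after its values were seen, held 32.8% of the sum. It had 116 in inflorescence and 137 in young stem against 63.4 in young leaf and 21.2 in mature leaf, so inflorescence and young stem shared this unigene at a high level.

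Which triterpenoid unigenes pass depends on the vegetative tissues compared. Without young stem, 7.58% of all unigenes tested were called higher and 2.01% lower. Of the 120 triterpenoid unigenes tested that way, 3 were called higher and 3 lower. The added ones, seen after the values were known, were AS Unigene074933 and AO Unigene117537 as higher, with 23.7 and 18.0 in inflorescence and 6.98 and 5.50 in young stem, and AS Unigene242438 and AO Unigene117544 as lower. Without mature leaf, 4 of the 121 triterpenoid unigenes tested were called higher, compared with 5.81% of all unigenes tested that way.

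**Figure D3:**
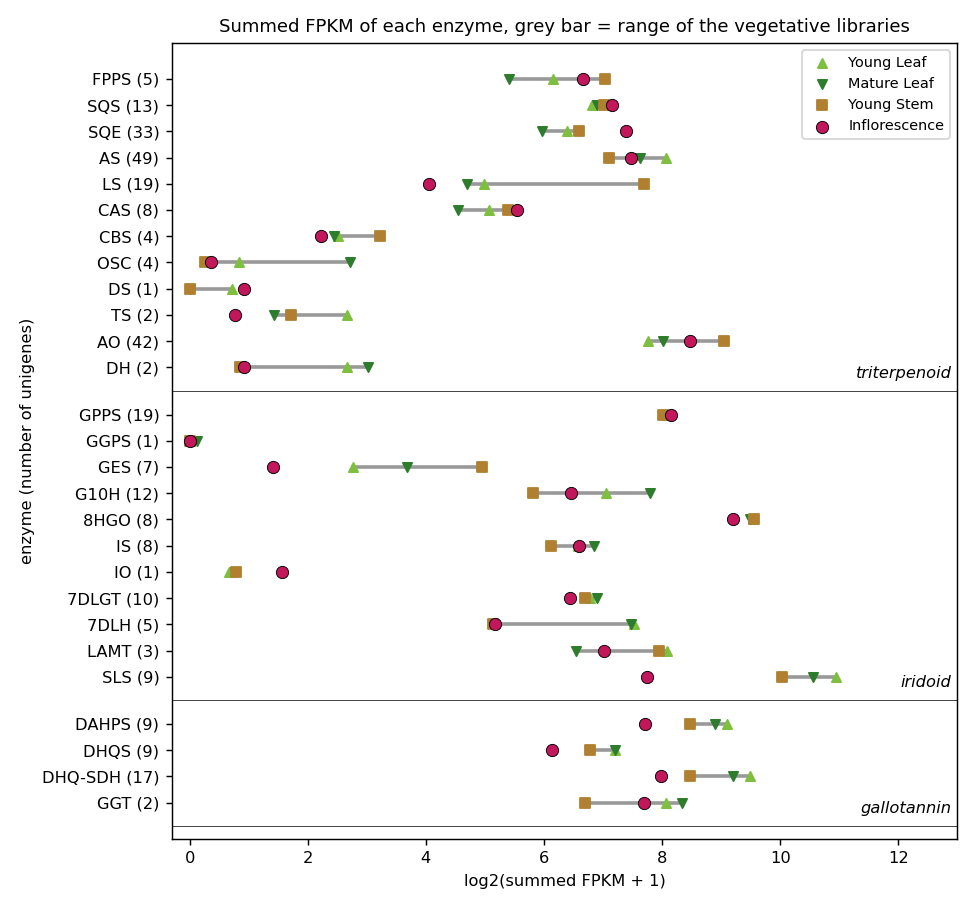
Summed FPKM per enzyme, as log2(sum + 1), in young leaf, mature leaf and young stem (small symbols joined by a grey bar over their range) and in inflorescence (large circles), in pathway order, with the number of unigenes in parentheses. Inflorescence lay above the vegetative range for 6 of 27 enzymes, among them SQE, below it for 10, among them SLS and 3 of the 4 gallotannin enzymes, and within it for 11.

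Iridoid synthesis starts from geranyl diphosphate, and its first enzyme was of similar level in all 4 tissues, whereas geraniol synthase was lowest in inflorescence. Geranyl diphosphate synthase (GPPS) summed to 283 over 19 unigenes in inflorescence against 258 to 272 in the vegetative libraries, which became a place within their range under median-of-ratios scaling. The single geranylgeranyl diphosphate synthase (GGPS) of the list, Unigene078051, was listed at 0 in inflorescence, young leaf and young stem. Geraniol synthase (GES), which releases geraniol, summed to 1.66 over 7 unigenes in inflorescence against 5.78 in young leaf, 11.8 in mature leaf and 29.8 in young stem. GES Unigene036779 made up most of the last value, with 27.2 in young stem and 0 listed in each of young leaf, mature leaf, inflorescence, pericarp and seed. The low sum in inflorescence rests on values near an FPKM of 1, where the shallow library is least precise.

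Geraniol 10-hydroxylase (G10H), a P450 that adds the hydroxyl group of the next intermediate, held both inflorescence and leaf unigenes. Its 12 unigenes summed to 86.5 in inflorescence, between 55.0 in young stem and 222 in mature leaf. G10H Unigene278905 was called higher, with 11.9 in inflorescence and 0 listed in each of the other 6 libraries. G10H Unigene288502 had 9.73 in inflorescence, 21.2 in young stem, 43.1 in young leaf and 93.5 in mature leaf. The lowest vegetative value was 2.18 times that of inflorescence, short of the threshold. The most abundant G10H of the inflorescence, Unigene278907, named after its values were seen, had 40.6 there, 33.4 in young leaf, 44.6 in mature leaf and 3.26 in young stem.

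8-Hydroxygeraniol oxidoreductase (8HGO), which oxidizes that intermediate, was abundant throughout, with 589 in inflorescence against 713 to 750 over 8 unigenes. Its leading Unigene122572 had 359 in inflorescence and 483 to 591 in the vegetative tissues. A second unigene, Unigene107582, was called higher, with 6.26 in inflorescence against 0.25 in young leaf, 0.17 in mature leaf and 0.79 in young stem. It was nearest to the threshold of all list members called higher, at 4.06 times with 1 added, and it missed the threshold under median-of-ratios scaling. Its highest value, 53.1, was in seed, so inflorescence was intermediate for this unigene over the whole plant. Iridoid synthase (IS), which closes the iridoid ring, had 95.8 in inflorescence against 68.7 to 114, with 72.1 for Unigene241827. Iridoid oxidase (IO) Unigene100054 was low everywhere, with 1.94 in inflorescence and 0.59 to 0.73 in the vegetative libraries.

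Among the last iridoid steps, the sums of 7-deoxyloganic acid hydroxylase and secologanin synthase were lower in inflorescence than in both leaves. 7-Deoxyloganetic acid glucosyltransferase (7DLGT), which adds the sugar, summed to 86.2 in inflorescence and 103 to 118 in the vegetative libraries, and Unigene274540 had 18.3 against 29.9 to 52.2. The most abundant 7DLGT of the inflorescence, Unigene036499, named after its values were seen, was highest there, with 38.7 against 17.2 to 28.2. 7-Deoxyloganic acid hydroxylase (7DLH), a P450 that gives loganic acid, summed to 35.0 in inflorescence and 34.1 in young stem, far from 182 in young leaf and 176 in mature leaf. Inflorescence fell just below young stem when the values were rescaled to TPM. 7DLH Unigene276335 had 104 in young leaf and 75.95 in mature leaf and was listed at 0 in young stem, inflorescence and pericarp. 7DLH Unigene283926 was called lower, with 18.5 in young leaf, 28.1 in mature leaf, 7.70 in young stem and 0.63 in inflorescence. Its lowest vegetative value was 12.2 times that of inflorescence. Loganic acid *O*-methyltransferase (LAMT), which methylates loganic acid to loganin, had 128 in inflorescence, between 92.1 in mature leaf and 271 in young leaf, nearly all from Unigene220174 with 120.3.

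Secologanin synthase (SLS), the P450 that opens the ring of loganin, had the largest gap to the vegetative tissues among the 27 enzyme sums, with 4.86 times more in the lowest vegetative library than in inflorescence. Its leading unigene, Unigene075938, had an FPKM of 1929 in young leaf, 1470 in mature leaf, 965 in young stem and 140 in inflorescence. It was called lower, the lowest vegetative library being 6.92 times and the highest 13.8 times above inflorescence. In the fruit it was lower still, with 8.62 in pericarp and 3.45 in seed, which places inflorescence between the vegetative tissues and the fruit. Over the 9 SLS unigenes the sums were 1962, 1498, 1038 and 213 in the same order of tissues. Unigene075938 held 65.4% of the SLS sum in inflorescence. The gap of the sum rests on this unigene. The other tested SLS unigenes, named after their values were seen, had more in inflorescence than in both leaves. They were Unigene137214, Unigene075850, Unigene077075 and Unigene297467. Of these, Unigene137214 had 54.45 in inflorescence and 54.33 in young stem against 27.3 in young leaf and 22.4 in mature leaf.

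A larger set of iridoid unigenes passed the 4-fold threshold against both leaves but not against young stem. Without young stem, 7.58% of all unigenes tested were called higher and 2.01% lower. Of the 57 iridoid unigenes tested that way, 6 were called higher and 8 lower, in place of 2 and 2. Leaving out either leaf moved neither iridoid count by more than 1.5 times. The 10 added unigenes are described after their values were seen. Missing the threshold did not make all of them level with young stem. 8HGO Unigene035542 had 25.7 in inflorescence and 8.87 in young stem, and 7DLGT Unigene067340 had 0.09 and 2.72. The 4 added as higher were 8HGO Unigene035542, 7DLH Unigene112559, GPPS Unigene116308 and LAMT Unigene106675. 7DLH Unigene112559 had 24.3 in inflorescence and 17.0 in young stem against 2.69 in young leaf and 0.60 in mature leaf, and it was as high in seed, at 24.4, and higher in pericarp, at 38.0. GPPS Unigene116308 had 14.7 in inflorescence and 21.4 in young stem against 2.51 and 2.43 in the leaves. The 6 added as lower came from 7DLH (Unigene110474, Unigene120969 and Unigene276335), G10H (Unigene134292 and Unigene288502) and 7DLGT (Unigene067340). 7DLH Unigene120969 had 49.2 in young leaf and 62.0 in mature leaf against 8.69 in young stem and 8.81 in inflorescence, and peaked at 263.8 in pericarp. The enzyme 7DLH thus had unigenes that were higher in the leaves and another that was higher in young stem and inflorescence. Fruit did not set these apart, since Unigene120969 and Unigene112559 were both highest in pericarp.

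**Figure D4:**
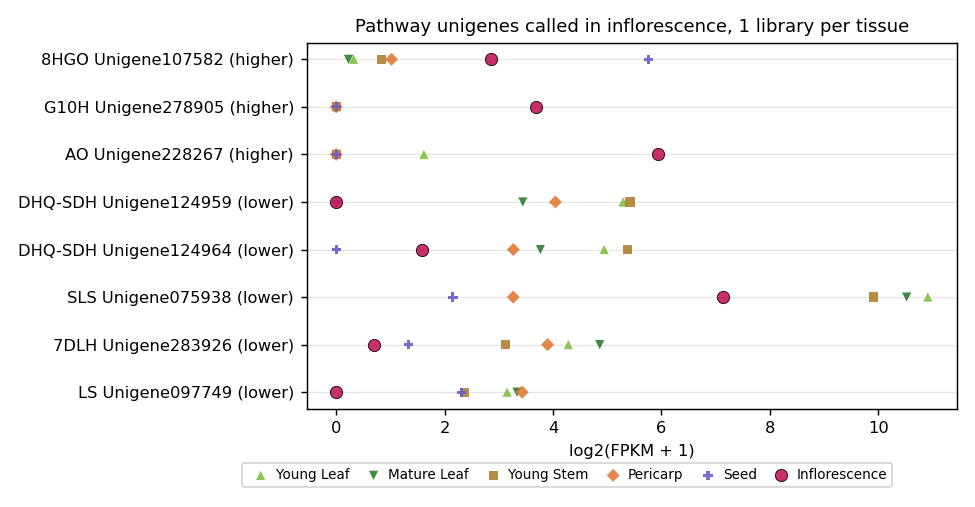
FPKM, as log2(FPKM + 1), of the 8 pathway unigenes called in inflorescence, in inflorescence (large circles), the 3 vegetative libraries and the 2 fruit libraries, with symbols that overlap at 0 where a unigene is listed at 0. The 3 unigenes called higher include 8HGO Unigene107582, which was highest in seed at an FPKM of 53.1, and SLS Unigene075938, called lower, stands at 140 in inflorescence between its vegetative and fruit values.

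The sums of the early steps of gallotannin synthesis were lower in inflorescence than in every vegetative library. 3-Deoxy-D-arabinoheptulosonate 7-phosphate synthase (DAHPS), the entry enzyme of the shikimate pathway, summed to 209 over 9 unigenes in inflorescence against 356 in young stem, 475 in mature leaf and 545 in young leaf. 3-Dehydroquinate synthase (DHQS), the next enzyme, had 69.1 against 109 to 146. The bifunctional 3-dehydroquinate dehydratase/shikimate dehydrogenase (DHQ-SDH), whose reactions give shikimate and can also give gallate, had 253 against 356 in young stem, 587 in mature leaf and 720 in young leaf. These 3 positions held under both other scalings. Gallate glucosyltransferase (GGT), which joins gallate to glucose, differed from them with 207 in inflorescence, between 102 in young stem and 322 in mature leaf.

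At the level of single unigenes the gap was smaller than the threshold for most. DAHPS Unigene085665 had 252 in young leaf, 230.1 in mature leaf, 78.4 in young stem and 76.9 in inflorescence, so inflorescence and young stem were level. DHQS Unigene252093 had 134 in young leaf, 139 in mature leaf, 103 in young stem and 59.9 in inflorescence, and 165 in seed. DHQ-SDH Unigene173474 had 310 and 265 in the leaves against 92.1 in inflorescence and 83.2 in young stem. GGT Unigene281485 had 72.9 in inflorescence, 51.1 in young stem, 180.4 in young leaf and 224 in mature leaf. The unigene with the most FPKM in inflorescence was another one for DAHPS and GGT, and both are named after their values were seen. DAHPS Unigene070183 had 79.1 in inflorescence, well below 235 in young leaf, 234 in young stem and 174 in mature leaf. GGT Unigene284429 went the other way, with 134 in inflorescence against 87.4 in young leaf, 98.4 in mature leaf and 50.55 in young stem, and it held 64.7% of the GGT sum in inflorescence. Unigene108827 and Unigene107206 were also named after their values were seen. DAHPS Unigene108827 had 52.5 in inflorescence, above 43.4 in young stem but below 57.8 in young leaf and 71.1 in mature leaf. DHQ-SDH Unigene107206 was highest in inflorescence, at 51.9 against 41.3 to 47.7 in the vegetative libraries.

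Both gallotannin unigenes called lower were DHQ-SDH unigenes that were highest in young stem. Unigene124959 had 41.8 in young stem, 38.2 in young leaf and 9.87 in mature leaf and was listed at 0 in inflorescence. Unigene124964 had 40.3 in young stem, 29.8 in young leaf, 12.6 in mature leaf and 1.98 in inflorescence, and at 4.57 times with 1 added it was nearest to the threshold of all list members called lower. In the fruit they had 15.5 and 8.63 in pericarp, and both were listed at 0 in seed. Their numbers lie close together, and similar sequences would share reads in the estimate, so they may not be independent. None of the 22 tested gallotannin unigenes was called higher.

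Cytochrome P450s were taken from the study's list of 262 CYP unigenes longer than 500 bases with an FPKM of at least 5 in at least 1 of the 7 tissues, a list thus made on these libraries. Of these, 179 were tested, 19 (10.6%) were called higher and 0 lower. The nearest background available is that of tested unigenes with the same minimum FPKM, of which 10.1% were called higher and 2.26% lower. The length minimum of the list was not applied to this background. The share of CYPs called higher was close to this background, which is not matched for length. The absence of lower calls depends on the rule: 1 CYP passed with TPM, 2 under median-of-ratios scaling, 9 with 0.1 added, 5 without mature leaf and 15 without young stem. Over all unigenes tested under each of these, the share called lower was 0.698%, 0.706%, 6.63%, 1.27% and 2.01%, in that order. The nearest to a lower call was Unigene128109, with 18.8 in young leaf, 21.8 in mature leaf, 10.7 in young stem and 2.05 in inflorescence, 3.83 times with 1 added. The nearest below a higher call was Unigene237172, at 3.97 times, with 6.87 in inflorescence and 0.98 in mature leaf.

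The 19 CYPs called higher included some of the most abundant P450s of the inflorescence. Their FPKM ran from 5.76 to 716 with a median of 12.6, and 17 of them stayed below an FPKM of 1 in every vegetative library. Unigene222057 had 716 in inflorescence and 5.11 in seed and was listed at 0 in young leaf, mature leaf, young stem and pericarp. Unigene304082 had 244 in inflorescence and Unigene300808 had 36.4, and both were listed at 0 in each of the other 6 libraries. Unigene077317 had 185 in inflorescence against 0.09 in young leaf, 0.26 in mature leaf, 0.16 in young stem and 0.32 in seed. Unigene141675 had 62.6 and Unigene035952 had 61.1 in inflorescence, with no value above 0.17 elsewhere. All 6 were near-absent from leaf, young stem and pericarp, and Unigene222057 alone had more than a trace in seed.

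The remaining 13 had between 5.76 and 29.3 in inflorescence. Pericarp or seed was less than 4 times below inflorescence, with 1 added, for 7 of the 19, while both were below an FPKM of 1 for 12. Unigene076313, chosen after its values were seen, is an example of the former, with 20.7 in inflorescence, 1.00 to 2.63 in the vegetative libraries, 75.5 in pericarp and 32.5 in seed. None of the 19 is among the 12 CYPs that also carry an iridoid enzyme name. With 10.6% of the tested CYPs called higher, 12 are too few for this absence to set them apart.

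The CYP list as a whole summed to 3073 in inflorescence, within the vegetative range of 2243 in young stem to 3458 in mature leaf, and the 19 held 47.8% of it. The median log2 difference of the 179 tested CYPs from the median vegetative library was -0.25, compared with 0.27 over the tested unigenes with the same minimum FPKM and 0.00 over all tested unigenes. Inflorescence was the lowest of the 4 libraries for 62 of the 179 (34.6%) and the highest for 54 (30.2%), compared with 22.2% and 42.3% over the tested unigenes with the same minimum FPKM. Those unigenes were not chosen by length, as the CYPs were, and the part of length in these contrasts was not tested.

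The 15 CYPs added as lower without young stem were by that rule high in both leaves, and they differed in their levels elsewhere. Unigene134292 and Unigene128109 were highest in pericarp, with 92.4 and 40.6, and Unigene081475 in seed, with 49.2. The most abundant in leaf, Unigene224632, chosen after its values were seen, had 396 in young leaf and 462 in mature leaf against 27.7 in young stem and 21.7 in inflorescence. A further 6 CYPs were added as higher, among them Unigene080604 with 22.2 in inflorescence and 13.2 in young stem against 0.16 and 0.23 in the leaves.

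**Figure D5:**
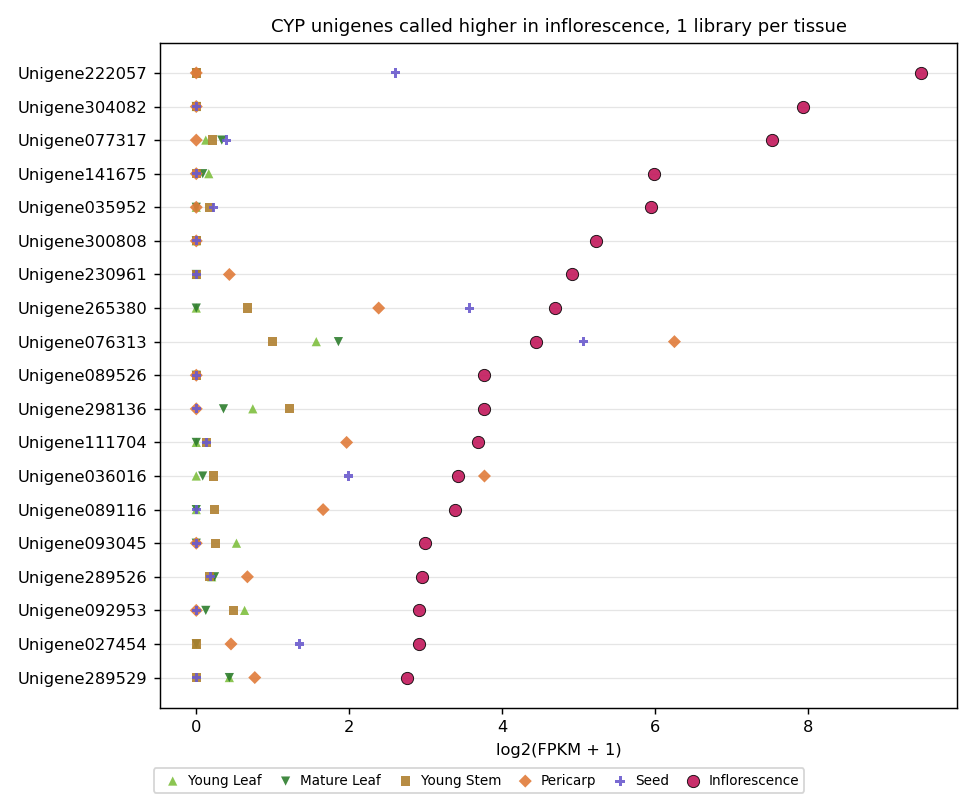
FPKM, as log2(FPKM + 1), of the 19 CYP unigenes called higher, ordered by their value in inflorescence (large circles), with the 3 vegetative and 2 fruit libraries as small symbols that overlap at 0. The top unigene stands at an FPKM of 716 and the last at 5.76, the vegetative symbols stay at or below 2.63, and Unigene076313 is exceeded by both fruit libraries.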

How the data were processed

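As the study's methods describe, the authors trimmed the reads, joined the contigs of 3 assemblers, removed redundant sequences by CD-HIT-EST clustering, aligned each library to the unigenes (Bowtie) and had RSEM turn the alignments into FPKM. Among the tools, the submitters' processing notes list Trimmomatic and RSEM, and versions are not given in the sources used here. The deposited table of all tissues, in FPKM, was used, and 0 of its values differed from the 7 tissue tables. FPKM carries no read counts, so the depth of each library is unknown beyond the relative values given, which were read in bins of 0.04 on the log2 scale, and precision could not be given as an interval.

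Unigene identifiers and enzyme names came from the study's supplementary lists, and no value from them was used. The deposited tables pair unigenes with no names or sequences. Calls used a fold of 4, an offset of 1 and a minimum FPKM of 1 in any of the 4 libraries. Levels of different enzymes were compared only as FPKM, which is per length. Enzyme sums run over all listed unigenes, tested or not.

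Named unigenes follow a rule: for each pathway enzyme the unigene with the highest FPKM in any of the 4 libraries, every called iridoid and gallotannin unigene, at most 10 called triterpenoid unigenes in each direction, 6 CYPs and 2 unigenes without an enzyme name in each direction, and the list members nearest to the threshold. Exceptions are said to be chosen after their values were seen. The comparison and lists were chosen with earlier results of these data known. Alternatives covered the offset, the minimum FPKM, TPM made by rescaling each library to an equal sum, median-of-ratios scaling, leaving out each vegetative library and adding mature stem. Calculations used Python 3.11.15, numpy 2.4.6, pandas 2.3.3 and matplotlib 3.10.9. The code of the calls was run on simulated data drawn from unigenes well expressed in every vegetative library. That run does not cover the low values and zeros behind most calls.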

Additional observations from a re-analysis of the deposited data

How the results depend on the processing

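Of 450 ratios of the 45 named unigenes under 10 alternatives, 428 kept their call, 22 gained or lost it and 0 reversed. With no filter on low values no count differed, since no unigene below an FPKM of 1 can pass. With an offset of 0.1, 16543 unigenes were higher and 10361 lower, with 5 and 13 in the triterpenoid list and 9 CYPs lower. With an offset of 5 the counts were 750 and 130, with 0 triterpenoid unigenes lower, 0 iridoid unigenes higher and 1 lower, 0 gallotannin unigenes lower and 8 CYPs higher. An FPKM of at least 5 left 4239 higher. TPM gave 1 CYP lower, and median-of-ratios scaling 1 iridoid unigene higher and 2 CYPs lower. Without mature leaf, 1823 unigenes (1.27%) were lower and 5.81% higher, with 4 triterpenoid unigenes higher and 5 CYPs lower. Without young stem, 2667 (2.01%) were lower and 7.58% higher. In the lists, 3 triterpenoid unigenes were then higher and 3 lower, 6 iridoid unigenes higher and 8 lower, and 15 CYPs lower. With mature stem added, 4 unigenes were lower, and 0 in the triterpenoid, iridoid and gallotannin lists. Fewer or more libraries to exceed change the counts by construction. The cause of the other changes was not tested. No paired analysis was possible because each tissue has 1 library. Values near an FPKM of 1 are the least certain, and most of all in inflorescence, whose fragments were worth the most FPKM.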

Other observations

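Mature stem was left out of the comparison, and most of the unigenes discussed were listed at 0 in it. This held for 7037 (96.1%) of the 7322 unigenes called higher, for 910 (91.4%) of the 996 called lower and for 148973 (95.3%) of all tested unigenes. Of the pathway unigenes called in inflorescence, SLS Unigene075938 had an FPKM of 0.65 in mature stem.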
